A study of Mus musculus with 6 samples.

Results

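Macrophages and other leukocytes of the heart were followed through 33 genes, chosen by symbol for their known roles in these cells, by a rule that used no measured value but was set with earlier results of these data known. A probe was listed for 32 of them, of 19053 genes with a probe, and Cd68 had none listed. Where a gene had several probes it was represented by the brightest one, by mean log2 intensity over the 6 arrays. The signal was strong enough for a test in 23 members, among 11166 genes tested in all.

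The hearts came from FVB mice, labelled as 8 weeks of age and taken 3 weeks after surgery, although the design text of the series gives the age in years. Thoracic aortic constriction (TAC), a band around the aorta that loads the left ventricle with pressure, was compared with sham surgery. Wild-type mice gave 1 sham array and 2 TAC arrays, and mice with a heart-specific JMJD2A transgene gave another 1 and 2. JMJD2A is a histone demethylase that acts on methylated lysines of histone H3. No label names the promoter behind the transgene, the number of founder lines or whether each array holds a single animal or a pool. P-values therefore reflect only how far these samples spread, which may be technical in part.

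Cardiac macrophages arise from embryonic progenitors and from blood monocytes. They depend on the receptor for colony stimulating factor (CSF1R), clear dead cells and debris, and are known to expand early after pressure overload, when monocytes that carry the chemokine receptor CCR2 enter the heart. Their Fc receptors signal through small adaptor proteins with tyrosine motifs. Many of their genes are switched on by the ETS factor PU.1, encoded by Spi1.

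Pairs of arrays had r = 0.984 to 0.994 over all probes, and the median intensity was 56.3 to 56.4 on each array, log2 5.82. Values below are log2 intensities without background subtraction, so a difference near the array median understates a change, and levels are not compared between probes. Xist, the RNA of the inactive X chromosome in females, stood at 5.38 in wild-type TAC 2 and 5.41 in transgenic sham and at 10.36 to 11.03 on the remaining 4 arrays. Sex is not among the labels, and its part in the results was not tested beyond the settings without these arrays and with Xist as a covariate. The heart itself was plain in the signal: all 12 listed cardiomyocyte markers with a probe were above the filter, the 50th percentile of all probes with a gene name (intensity 58.7, log2 5.88).

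A total of 9 members lay below that filter and have values but no test. They were Ptprc, which encodes CD45, the surface phosphatase of all leukocytes (5.53 to 5.74), and the tetraspanin gene Cd53 (5.69 to 5.97). The integrin chain genes Itgam (5.65 to 5.76) and Itgb2 (5.59 to 5.87), which together form the complement receptor of myeloid cells, were among them, as were the complement C5a receptor gene C5ar1 (5.45 to 5.63) and Cybb, the catalytic subunit of the phagocyte oxidase (5.30 to 5.56). The monocyte attractant gene Ccl2 (5.74 to 5.95), its receptor gene Ccr2 (5.14 to 5.62) and the Fc receptor adaptor gene Fcer1g (5.27 to 5.45) completed them. Ccr2 stood at 5.62 and 5.61 in the sham arrays and at 5.14, 5.30, 5.54 and 5.42 in the TAC arrays, at or under the lower quartile of the arrays (5.54) in every TAC array. Neither monocyte entry nor its absence can be read from probes at this level.

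The other 23 members spanned all roles except the integrins, and the plot of the members by array shows each value. In the TAC comparison 20 of them had a positive difference and the median was 0.11, beside 48.5% positive and a median of -0.01 over all tested genes. Because the samples are bulk tissue, more cells of a type and more RNA per cell cannot be told apart.

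**Figure D1:**
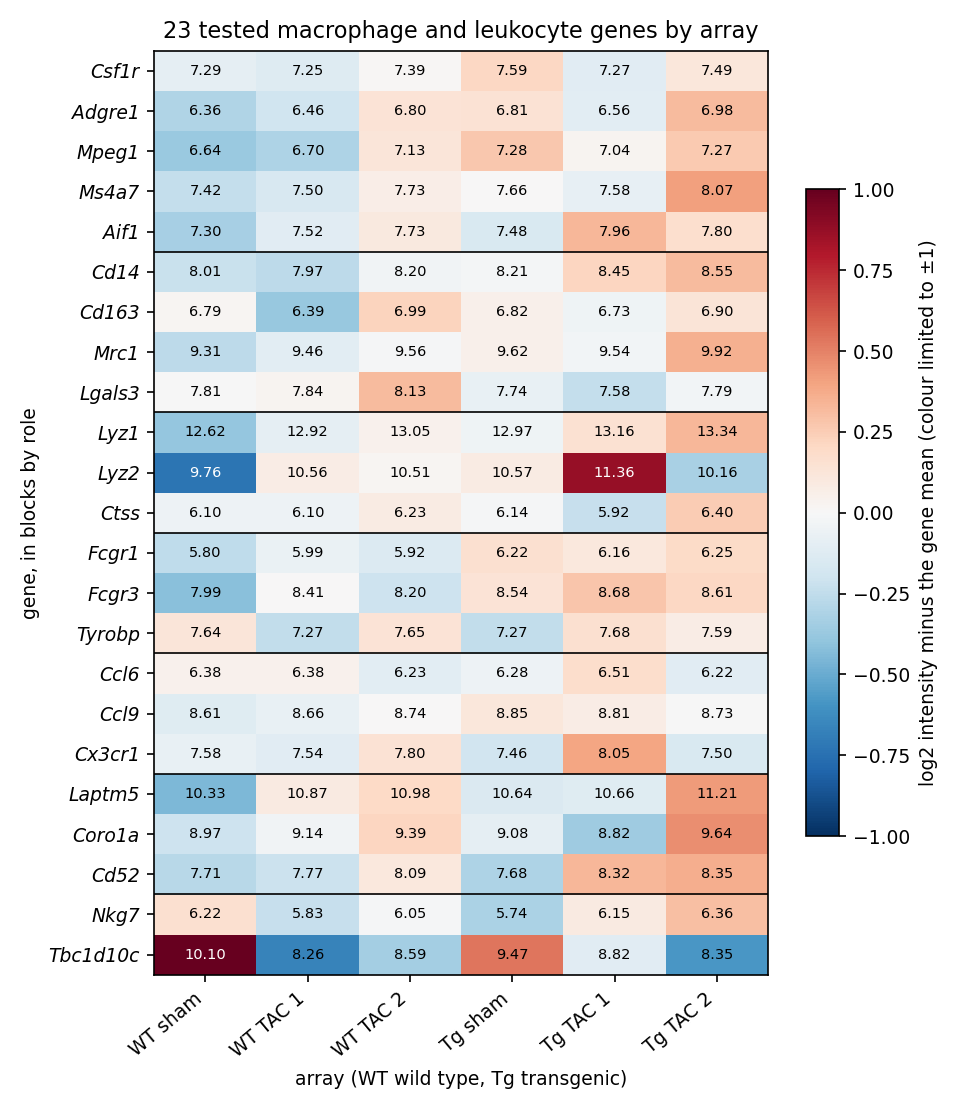
Log2 intensity of the 23 tested members (vertical, in blocks by role) on the 6 arrays (horizontal), with the value printed in each cell and the colour giving its distance from the gene's mean over the arrays. Lyz2 (9.76 to 11.36) and Tbc1d10c (8.26 to 10.10) vary most, and wild-type sham holds the lowest value of 11 members.

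Whether pressure overload altered leukocyte transcripts was asked with TAC against sham over both genotypes, 4 arrays against 2. Laptm5, a lysosomal membrane protein of blood cells, stood at 10.33 in wild-type sham and 10.64 in transgenic sham, at 10.87 and 10.98 in wild-type TAC and at 10.66 and 11.21 in transgenic TAC. Cd52, a small surface glycoprotein of lymphocytes and monocytes, stood at 7.71 and 7.68 in the sham arrays, at 7.77 and 8.09 in wild-type TAC and at 8.32 and 8.35 in transgenic TAC. Aif1, the calcium-binding protein IBA1 of macrophages, stood at 7.30 and 7.48 in sham, at 7.52 and 7.73 in wild-type TAC and at 7.96 and 7.80 in transgenic TAC. On the probes used, all TAC arrays of these 3 genes were above both sham arrays. However, the lowest TAC array of Laptm5 and that of Aif1 lay close to transgenic sham, and that of Cd52 close to wild-type sham. The differences were 0.45 ± 0.17 for Laptm5 (SE, 1.36-fold), 0.44 ± 0.17 for Cd52 (1.35-fold) and 0.36 ± 0.15 for Aif1 (1.29-fold), with adjusted p between 0.481 and 0.507 in limma. Aif1 has a second probe above the filter, at 7.04 and 7.44 in sham, 7.11 and 7.54 in wild-type TAC and 7.34 and 7.65 in transgenic TAC, where the groups overlap and the difference is 0.17. The difference of Cd52 was 0.22 without transgenic sham, 0.24 by the median over its probes and 0.06 without both arrays of low Xist, and that of Laptm5 was 0.30 without wild-type sham. With a sham array left out the difference rests on the other genotype alone. Without both arrays of low Xist it rests on wild-type TAC 1 against wild-type sham. Laptm5, Cd52 and Aif1 were 3 of 23 members, or 13%, whose TAC arrays lay wholly above sham, where 8.38% of all genes did.

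The lysozymes are secreted enzymes that break bacterial cell walls, and macrophages make Lyz2 in quantity. Lyz1 was at 12.62 and 12.97 in wild-type and transgenic sham and at 12.92, 13.05, 13.16 and 13.34 in the TAC arrays, a difference of 0.32 ± 0.10 (adjusted p = 0.415). Within each genotype its TAC arrays were above the sham array, but wild-type TAC 1 lay below transgenic sham. These values come from the bright Lyz1 probe alone. The other Lyz1 probes lay below the filter, at 5.41 to 5.80, with TAC differences of -0.07 and -0.01. Lyz2 stood at 0.49 ± 0.29 (adjusted p = 0.654), from 9.76 and 10.57 in sham to 10.56, 10.51, 11.36 and 10.16 in TAC. With 1 array left out its difference ran from 0.19, without wild-type sham, to 0.78, without transgenic sham or transgenic TAC 2, with 0.27 without transgenic TAC 1, and by the median over probes it was 0.09. The values without a sham array are those within the other genotype. Lyz1 and Lyz2 are close copies, and whether a probe picks up transcripts of both was not tested.

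In the remaining members the differences were below 1 SE or little above it. The receptor gene Csf1r stood at 7.29 and 7.59 in wild-type and transgenic sham, at 7.25 and 7.39 in wild-type TAC and at 7.27 and 7.49 in transgenic TAC (-0.09 ± 0.15). Transgenic sham was its highest array, and on a second probe above the filter the difference had the other sign, 0.24. The differences were 0.11 ± 0.17 for Adgre1, which encodes the F4/80 antigen, and 0.07 ± 0.17 for the pore-forming protein gene Mpeg1. Of the scavenger receptors, Cd163, which takes up haemoglobin complexes, stood at -0.05 ± 0.17 and the mannose receptor gene Mrc1 at 0.16 ± 0.16, with 9.31 and 9.62 in sham, 9.46 and 9.56 in wild-type TAC and 9.54 and 9.92 in transgenic TAC. The endotoxin co-receptor gene Cd14 stood at 0.18 ± 0.16 and the membrane protein gene Ms4a7 at 0.18 ± 0.18. Ctss, the cathepsin that processes antigen in macrophages, differed by 0.05 ± 0.14, and Lgals3, the lectin galectin-3, by 0.06 ± 0.17. The high-affinity Fc receptor gene Fcgr1 was at 0.07 ± 0.10, the low-affinity one Fcgr3 at 0.21 ± 0.15, and the adaptor gene Tyrobp at 0.09 ± 0.18. The chemokine genes Ccl6 (0.00 ± 0.12) and Ccl9 (0.00 ± 0.15) had the smallest differences of all members, and the fractalkine receptor gene Cx3cr1 stood at 0.21 ± 0.19. Ccl9 lay between 8.61 and 8.85 on all arrays, with transgenic sham the highest. The actin-binding protein gene Coro1a was at 0.22 ± 0.22 and Nkg7, a granule protein of killer cells, at 0.11 ± 0.17.

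Tbc1d10c, which encodes a calcineurin inhibitor also known as carabin, ran the other way. It stood at 10.10 in wild-type sham and 9.47 in transgenic sham, and at 8.26 and 8.59 in wild-type TAC and 8.82 and 8.35 in transgenic TAC. All 4 TAC arrays were below both sham arrays, the only tested member for which this held (4.35% of tested members, beside 8.16% of all genes). Among the members below the filter, which have no test, it also held for Ccr2. The difference was -1.28 ± 0.22, a 2.44-fold lower intensity, and did not pass (adjusted p = 0.225). Without transgenic TAC 1 it was -1.44 ± 0.18 and passed (adjusted p = 0.0199), in a fit where 0.331% of all genes passed. In all, 0 of 23 members passed in limma, where 0.00896% of all genes did. At an unadjusted p under 0.05 there were 5 members (21.7%), 4 higher and 1 lower, beside 9.25% of all genes: Tbc1d10c, Lyz1, Laptm5, Cd52 and Aif1.

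**Figure D2:**
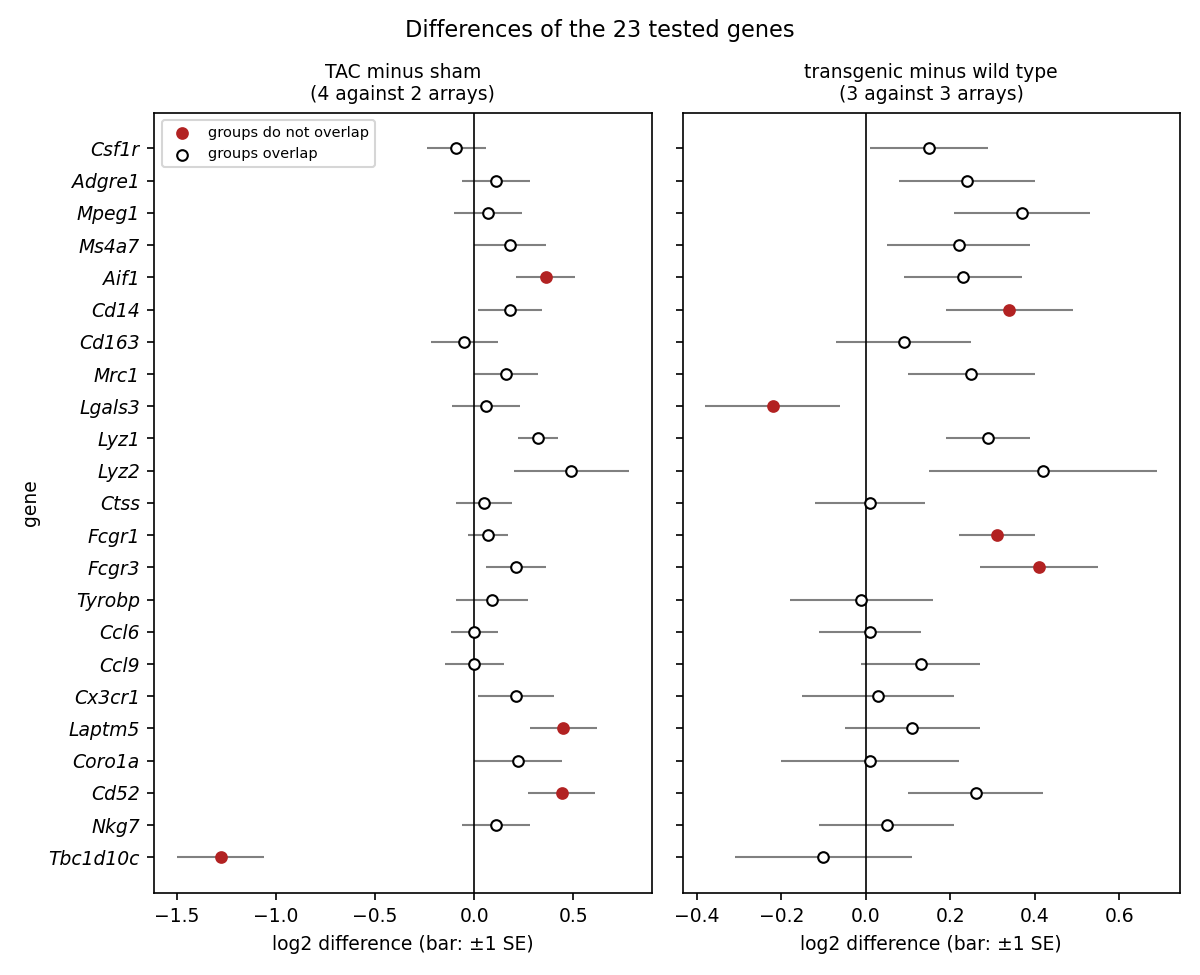
Log2 difference (horizontal axis, bars ±1 SE) of the 23 tested members for TAC minus sham (left) and transgenic minus wild type (right), with filled points where the groups of arrays do not overlap. Most points lie slightly right of 0 in each panel, Tbc1d10c stands at -1.28 on the left, and the axes of the panels differ in range.

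The value of Tbc1d10c came from 1 of its 4 probes. A second probe, also above the filter, stood at 6.60 in wild-type sham, at 6.30 and 6.55 in wild-type TAC, 6.14 in transgenic sham and 6.21 and 6.43 in transgenic TAC, with no order by surgery. The remaining 2 probes lay between 5.36 and 5.82 on all arrays. By the median over its probes the TAC difference was 0.00 in place of -1.28. T cells are known to make carabin. Of their markers, Cd8b1 was bright, at 10.18 to 10.73 on all arrays, and the others lay near or below the filter: Cd3e stood at 5.87 to 6.15, Cd3g at 5.83 to 6.24 and Cd3d at 5.82 to 6.32, while Cd2, Cd4, Cd5 and Cd8a were below the filter. Of 5 tested T cell markers 4 had a positive TAC difference, and their median was 0.12. Which transcript the bright probe reads, and in which cells of the heart, was not tested.

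Lyz2 also depended on the probe. Its second probe stood at 7.50 in wild-type sham, 7.65 and 8.11 in wild-type TAC, 8.29 in transgenic sham and 7.81 and 8.36 in transgenic TAC. Transgenic TAC 1, the highest array on the bright Lyz2 probe at 11.36, was thus below transgenic sham on the second, and transgenic TAC 2 was the highest. Only 6 of the 32 members had a second probe above the filter. Coro1a had 4 probes above the filter, and its array order differed between them. The first stood at 8.97 and 9.08 in wild-type and transgenic sham, 9.14 and 9.39 in wild-type TAC and 8.82 and 9.64 in transgenic TAC, and the second at 8.45 and 8.66, 8.60 and 8.91, and 8.60 and 8.97. Both were highest in transgenic TAC 2. The fourth was highest in transgenic TAC 1, at 6.85, where the first was lowest, and the third was lowest in transgenic sham, at 6.45. Their TAC differences were 0.22, 0.21, 0.12 and 0.40.

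**Figure D3:**
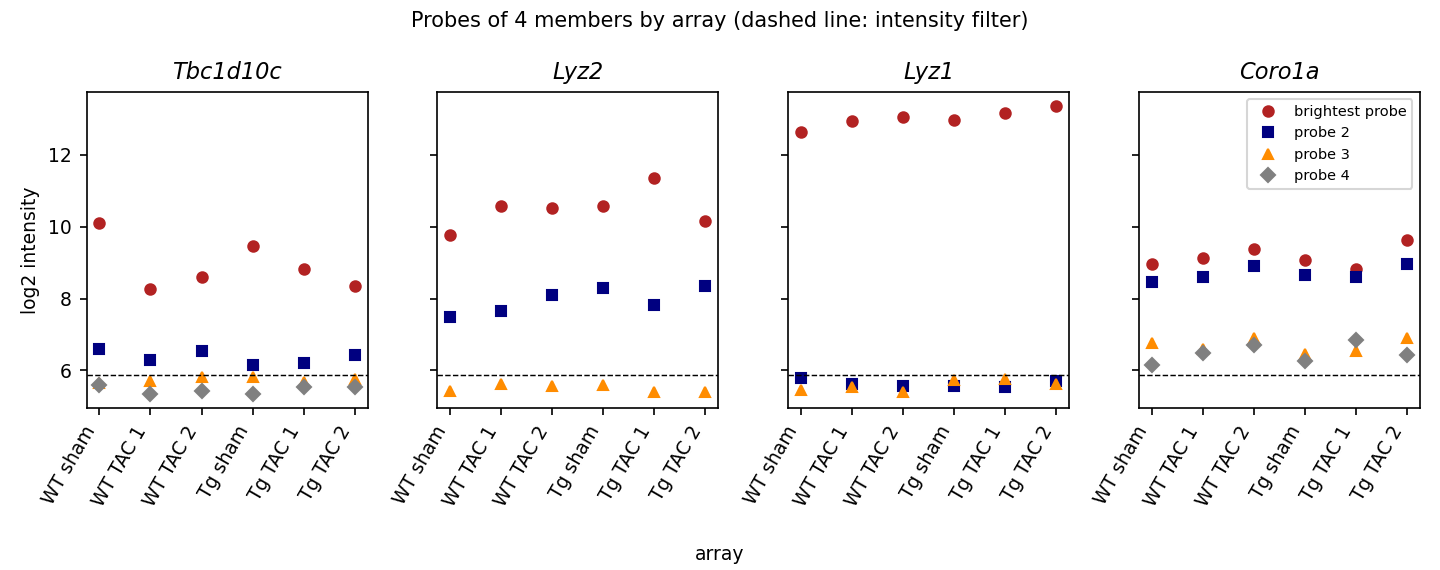
Log2 intensity (vertical axis) for each probe of Tbc1d10c, Lyz2, Lyz1 and Coro1a on the 6 arrays (horizontal axis), with the intensity filter as a dashed line. The bright Tbc1d10c probe spans 8.26 to 10.10 while its other probes stay at 5.36 or more but below every value of the bright one, and the 2 upper Coro1a probes are both highest in transgenic TAC 2.

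Extreme values of the members gathered on a pair of arrays. The wild-type sham array held the lowest value of 11 of 23 members (47.8%), where it held the lowest of 15.7% of all tested genes. These were Adgre1, Mpeg1, Ms4a7, Aif1, Mrc1, Lyz1, Lyz2, Fcgr1, Fcgr3, Ccl9 and Laptm5. Transgenic TAC 2 held the highest value of 11 members, also 47.8%, beside 24.7% of all genes: Adgre1, Ms4a7, Cd14, Mrc1, Lyz1, Ctss, Fcgr1, Laptm5, Coro1a, Cd52 and Nkg7. The median distance of the members from their own mean was -0.22 in wild-type sham, -0.11 and 0.07 in wild-type TAC 1 and 2, -0.01 in transgenic sham and 0.08 and 0.21 in transgenic TAC 1 and 2. Over all tested genes it stayed between -0.04 and 0.03. Wild-type sham enters both the TAC and the genotype comparison on the low side and transgenic TAC 2 enters both on the high side, so these comparisons are not independent. Without wild-type sham 15 of 23 members had a positive TAC difference (median 0.11), and without transgenic TAC 2 19 did (median 0.06).

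**Figure D4:**
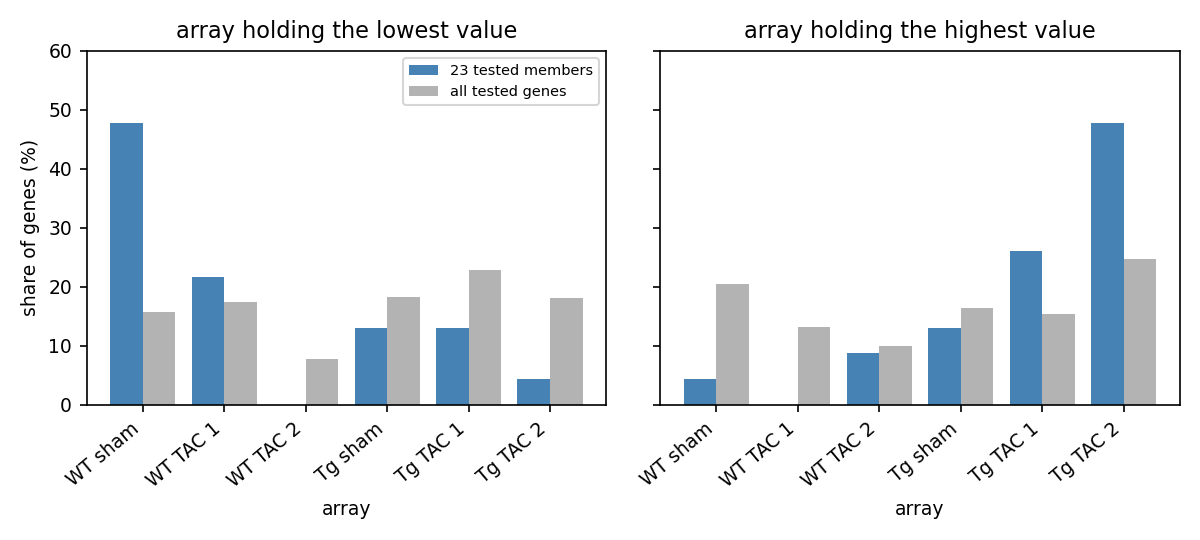
Share of genes (vertical axis, percent) whose lowest (left) or highest (right) value lies on each array, for the 23 tested members (blue) and all 11166 tested genes (grey). Wild-type sham holds the lowest value of 47.8% of members and transgenic TAC 2 the highest of 47.8%.

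Within wild type, 2 TAC arrays against 1 sham array, 18 of 23 members had a positive difference and the median was 0.18. Tbc1d10c stood at -1.68 ± 0.29 (adjusted p = 0.527), Laptm5 at 0.60 ± 0.26, Lyz2 at 0.78 ± 0.41, Lyz1 at 0.36 ± 0.16, Aif1 at 0.33 ± 0.25 and Nkg7 at -0.28 ± 0.16 (adjusted p = 1 for these). No member passed in limma (0 of 23, with 0% of all genes), and 2 members had an unadjusted p under 0.05 where 3.56% of all genes did. With either transgenic TAC array left out of the fit, which alters only the estimate of the spread, Tbc1d10c passed at -1.68 ± 0.21 (adjusted p = 0.0251 without TAC 1 and 0.0245 without TAC 2), as did 0.0985% of all genes in each of these fits. The median of the members was 0.05 without wild-type TAC 2 and 0.06 with Xist as a covariate.

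Within transgenic hearts 15 of 23 members had a positive TAC difference and the median was 0.11. Nkg7 stood at 5.74 in sham and at 6.15 and 6.36 in TAC, a difference of 0.51 ± 0.16, and Cd52 at 0.65 ± 0.26, while Tbc1d10c stood at -0.89 ± 0.29, Aif1 at 0.40 ± 0.25, Lyz1 at 0.27 ± 0.16 and Tyrobp at 0.36 ± 0.27 (each with adjusted p = 0.991). No member passed in limma (0 of 23, with 0% of all genes), and 3 had an unadjusted p under 0.05 where 4.86% of all genes did. Without transgenic TAC 1 Tbc1d10c passed at -1.12 ± 0.24 (adjusted p = 0.0493), with 2.19% of all genes, and the median of the members was -0.04 without transgenic TAC 2 and 0.30 with Xist as a covariate. Xist was low in transgenic sham and high in both transgenic TAC arrays, so surgery and sex cannot be told apart here.

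Between the genotypes, 5 members had both TAC arrays above the sham array in each: Aif1, Lyz1, Fcgr3, Laptm5 and Cd52 (21.7%, beside 15.2% of all genes). Tbc1d10c was below sham in each (4.35%, beside 15.8%). A further 8 members were above sham in wild type and overlapped it in transgenic hearts, among them Adgre1, Ms4a7, Mrc1, Lyz2 and Fcgr1 (34.8%, beside 13.3%). All of those named had their lowest value of the 6 arrays in the single wild-type sham array. Mpeg1, Ccl9 and Nkg7 had their TAC arrays on opposite sides of sham in the genotypes (13%, beside 14% of all genes). The difference of the TAC responses, transgenic minus wild type, had a median of -0.09 and was positive for 9 of 23 members. Nkg7 had the largest (0.80 ± 0.23, adjusted p = 1), since it stood at 6.22 in wild-type sham and 5.83 and 6.05 in wild-type TAC. Tyrobp, the adaptor of several activating receptors, stood at 7.64 in wild-type sham, 7.27 and 7.65 in wild-type TAC, 7.27 in transgenic sham and 7.68 and 7.59 in transgenic TAC (0.54 ± 0.37, adjusted p = 1). The other members with the smallest p were Tbc1d10c (0.79 ± 0.41), Cd52 (0.43 ± 0.37), Mpeg1 (-0.40 ± 0.36) and Lyz2 (-0.59 ± 0.59), each with adjusted p = 1. No member passed in limma (0 of 23, with 0% of all genes), and only Nkg7 had an unadjusted p under 0.05, as 1.64% of all genes did. A differing response was thus not detectable with these arrays, and Xist enters this difference too.

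**Figure D5:**
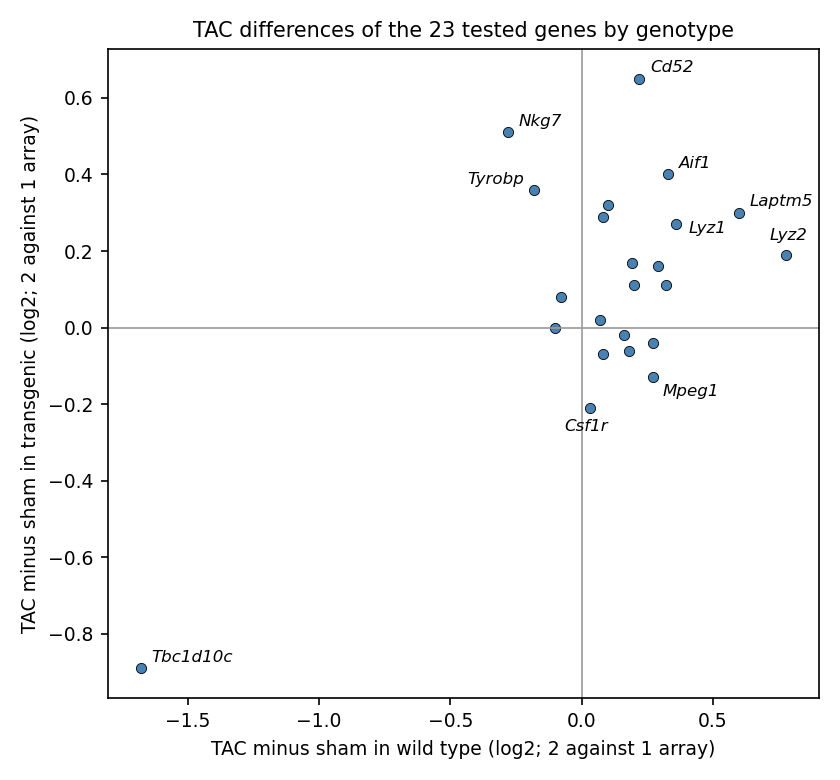
TAC minus sham (log2) of the 23 tested members in wild type (horizontal axis) and in transgenic hearts (vertical axis), each from 2 arrays against 1. Tbc1d10c lies apart at -1.68 and -0.89, Lyz2 and Laptm5 have the larger differences in wild type and Cd52 in transgenic hearts, and Nkg7 and Tyrobp are negative in wild type and positive in transgenic hearts.

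Promoters are printed for Laptm5, Aif1, Fcgr1 and Fcgr3, members whose groups did not overlap for TAC or genotype and whose window, from 250 bases before to 50 after the gene's start, held the core letters of a site for PU.1. Lgals3 had a window without these letters, and Cd14, Cd52 and Tbc1d10c had no entry in the table used. The 250 bases before the start are given. The sequences are from RefSeq on GRCm38.p6. They lie at chr4:130913066-130913315 on the plus strand for Laptm5, chr17:35176053-35176302 on the minus strand for Aif1, chr3:96293970-96294219 on the minus strand for Fcgr1 and chr1:171059404-171059653 on the minus strand for Fcgr3. Each runs 5′ to 3′ along the gene, and capitals mark GAGGAA, the core of a PU.1 site, or its reverse complement.
Laptm5: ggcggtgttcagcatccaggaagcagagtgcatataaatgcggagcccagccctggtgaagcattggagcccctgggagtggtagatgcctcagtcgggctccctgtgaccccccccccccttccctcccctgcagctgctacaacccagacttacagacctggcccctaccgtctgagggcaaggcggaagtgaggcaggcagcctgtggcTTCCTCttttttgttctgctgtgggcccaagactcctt
Aif1: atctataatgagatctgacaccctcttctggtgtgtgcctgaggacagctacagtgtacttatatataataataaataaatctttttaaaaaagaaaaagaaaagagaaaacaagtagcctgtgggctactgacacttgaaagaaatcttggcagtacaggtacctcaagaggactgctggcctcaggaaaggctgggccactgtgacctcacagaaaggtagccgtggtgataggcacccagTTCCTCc
Fcgr1: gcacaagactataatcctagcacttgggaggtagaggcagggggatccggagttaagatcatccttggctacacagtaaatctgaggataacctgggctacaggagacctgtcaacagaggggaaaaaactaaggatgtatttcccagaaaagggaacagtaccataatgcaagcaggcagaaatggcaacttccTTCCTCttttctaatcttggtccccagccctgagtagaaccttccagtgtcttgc
Fcgr3: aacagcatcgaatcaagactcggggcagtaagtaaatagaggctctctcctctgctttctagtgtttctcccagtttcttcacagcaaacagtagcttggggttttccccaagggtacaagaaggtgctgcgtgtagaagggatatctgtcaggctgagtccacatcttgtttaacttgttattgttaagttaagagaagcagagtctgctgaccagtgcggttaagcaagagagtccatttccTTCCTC
Each of the 4 printed stretches held 1 match, on the reverse strand. Its first base lay at -38 in Laptm5, -7 in Aif1, -55 in Fcgr1 and -6 in Fcgr3 relative to the start, the first listed where a gene has several. The 50 bases after the start were not part of this count. Over the whole window, 12 of 25 members with one held GAGGAA on either strand (48%), where 31.3% of 27025 genes did. The longer GAGGAAGT, which contains the shorter motif, was in 2 members, Ctss and Cd53 (8% against 3.69%). A match is a run of letters and not a measured site.

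What differed with the transgene over both surgeries was asked with 3 arrays against 3. In Fcgr1 the wild-type arrays stood at 5.80, 5.99 and 5.92 and the transgenic arrays at 6.22, 6.16 and 6.25. In Fcgr3 they stood at 7.99, 8.41 and 8.20 against 8.54, 8.68 and 8.61. In Cd14 they stood at 8.01, 7.97 and 8.20 against 8.21, 8.45 and 8.55, so that transgenic sham and wild-type TAC 2 almost met. For these 3 genes every transgenic array was above every wild-type array. The differences were 0.31 ± 0.09 for Fcgr1 (1.24-fold, adjusted p = 0.200), 0.41 ± 0.14 for Fcgr3 (1.33-fold, adjusted p = 0.303) and 0.34 ± 0.15 for Cd14 (1.27-fold, adjusted p = 0.415). They were 13% of members, beside 7.59% of all genes. Fcgr1 lies just above the filter, and with the 10th percentile of each array subtracted its difference was 0.79. Without both arrays of low Xist Fcgr3 stood at 0.24 and Cd14 at 0.53.

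Lgals3 was the member that lay wholly lower in transgenic arrays (4.35% of members, beside 8.55% of all genes), at 7.74, 7.58 and 7.79 against 7.81, 7.84 and 8.13 (-0.22 ± 0.16, adjusted p = 0.651). Lyz1 stood at 0.29 ± 0.10, Mpeg1 at 0.37 ± 0.16 (0.11 by the median over probes, 0.24 with either sham array left out), Mrc1 at 0.25 ± 0.15 (0.15 without transgenic TAC 2), Adgre1 at 0.24 ± 0.16 and Csf1r at 0.15 ± 0.14. Tyrobp (-0.01 ± 0.17), Ccl6 (0.01 ± 0.12), Coro1a (0.01 ± 0.21) and Ctss (0.01 ± 0.13) stood at 0 within their SE. Altogether 20 of 23 members had a positive difference (median 0.15, beside -0.01 over all genes), and without wild-type TAC 2 the median was 0.25. No member passed in limma (0 of 23, beside 0.949% of all genes), and 5 had an unadjusted p under 0.05, all higher (21.7%, beside 11.5% of all genes): Fcgr1, Lyz1, Fcgr3, Cd14 and Mpeg1. Lyz2 stood at 0.42 ± 0.27 (adjusted p = 0.622). Without transgenic TAC 2 it was 0.82 ± 0.11 and passed (adjusted p = 0.00682), in a fit where 4.25% of all genes passed.

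After TAC alone, 2 arrays against 2, 20 of 23 members were higher in transgenic hearts with a median of 0.17, and the median was 0.03 without wild-type TAC 1 and 0.28 without transgenic TAC 1. Nkg7 stood at 0.31 ± 0.13 (adjusted p = 0.860), Fcgr1 at 0.25 ± 0.11, Cd14 at 0.41 ± 0.21, Lyz1 at 0.26 ± 0.13, Fcgr3 at 0.34 ± 0.21 and Cd52 at 0.41 ± 0.22. No member passed in limma (0 of 23, beside 0.206% of all genes), and Nkg7 alone had an unadjusted p under 0.05, as 5.76% of all genes did. Lyz2 stood at 0.23 ± 0.34 (adjusted p = 0.999), and without transgenic TAC 2 it passed at 0.83 ± 0.16 (adjusted p = 0.0406), with 1.71% of all genes. Between the sham arrays, 1 against 1 with no test, 5 of 23 members were higher in transgenic sham by at least 0.4 (8.52% of all genes): Lyz2 (0.81), Mpeg1 (0.64), Fcgr3 (0.55), Adgre1 (0.45) and Fcgr1 (0.43). Tbc1d10c (-0.63) and Nkg7 (-0.48) were lower by at least 0.4, as were 8.72% of all genes. Xist stood at 10.5 in wild-type sham and 5.41 in transgenic sham, so genotype and sex cannot be told apart in this pair.

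Genes that work beside the members were counted in lists, and 0 genes of these lists passed for TAC in limma. The complement C1q chains and other resident macrophage genes had 9 of 15 tested members higher after TAC (median 0.08), with C1qc at 0.40 ± 0.17 and the scavenger receptor gene Stab1 at -0.55 ± 0.17. Signalling partners of Fc receptors were higher in 12 of 15 (0.17), led by the phospholipase gene Plcg2 at 0.54 ± 0.18. Toll-like receptors and partners were higher in 9 of 14 (0.19), phagocyte oxidase partners in 5 of 6 (0.05, with the proton channel gene Hvcn1 at 0.45 ± 0.15) and integrins, selectins and ligands in 8 of 12 (0.11, with Fermt3 at 0.36 ± 0.16). Other chemokines and receptors were higher in 12 of 21 (0.05), with Cxcl14 at -0.65 ± 0.17 and Cxcr4 at 0.48 ± 0.18. Myeloid transcription factors and growth factors were higher in 5 of 9 (0.04), and Spi1 itself stood between 6.09 and 6.39 on all arrays. Alternative activation genes were higher in 5 of 9 (0.06, with Retnla at -0.66 ± 0.24) and inflammatory cytokines in 3 of 4 (0.08), where Tnf, Il6, Il1a and Il1rn lay below the filter.

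Markers of other cells were counted in the same way. Fibroblast markers were higher in 11 of 12 (median 0.44), with a summed intensity of 21848 and 23757 in sham and 26202 to 38204 in TAC. Endothelial markers were higher in 10 of 11 (0.21), with sums of 22460 and 24939 in sham and 20452 to 29468 in TAC, and between genotypes they were higher in 1 of 11 (median -0.24), fibroblast markers in 11 of 12 (median 0.17, beside 0.15 for the members), while smooth muscle and pericyte markers were higher in 0 of 9 (-0.43), of which Acta2 passed. Erythrocyte markers were higher in 1 of 5 (-0.04, sums 69185 and 69480 in sham and 66405 to 72042 in TAC). Monocyte markers were higher in 5 of 6 (0.28), with Ace at 0.87 ± 0.17 and Vcan at 0.50 ± 0.14, genes that endothelium and fibroblasts also express. For neutrophils 7 of 11 markers with a probe, Mpo, Elane and Camp included, lay below the filter, for natural killer cells 6 of 9, for mast cells 6 of 9, for dendritic cells 6 of 9 and for B cells 4 of 6. Natural killer markers were higher in 2 of 3 (0.03), mast cell markers in 3 of 3 (0.39), dendritic cell markers in 2 of 3 (0.21), neutrophil markers in 3 of 4 (0.07), B cell markers in 2 of 2 (0.04), cardiomyocyte markers in 7 of 12 (0.02), smooth muscle markers in 7 of 9 (0.08) and adipocyte markers in 0 of 2 (-0.18). The part of these cells in the members' differences was not tested.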

How the data were processed

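Deposited were linear intensity values, 1 for each probe on each array, from total RNA copied into biotinylated cRNA per the labels' protocols. Once sorted, the columns lay within 0.0064 (log2) of their mean, as quantile normalization leaves them. Software and background correction were not stated in the labels. The normalization was kept, 12 values under 32 were set to 32, and log2 was taken. Of 45281 probes, 34885 carried 1 gene symbol, 18 several and 10378 none, and names were brought up to date through gene identifiers (34807 probes) or accessions (11).

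Tests across all 11166 genes were fitted in limma 3.58.1 under R 4.3.3 (lmFit, then eBayes with trend), two-sided, with Benjamini-Hochberg adjustment over all genes and a threshold of 0.05. Surgery plus genotype gave the comparisons over both genotypes or surgeries (3 residual and 6.14 prior degrees of freedom), and 4 group means gave the others (2 and 6.25). Each sham group has 1 array, assumed to vary like the TAC arrays. Named were members past the test or otherwise the 6 with the smallest p, the 3 largest without overlap, at least 1 per role, and list genes among the 2 with the smallest p for TAC. Alternatives were another probe summary, filter, normalization, background and trend setting, Xist as a covariate and each array left out. The steps were tested on simulated data. The number of arrays limits the precision. The members and lists were chosen with earlier results of these data known. Sequences of proteins were not analysed here.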

Additional observations from a re-analysis of the deposited data

Results flagged for a closer look

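Mpeg1, Ccl9 and Nkg7 were singled out because both TAC arrays lay on one side of the sham array in wild type and on the other side in transgenic hearts, which held for 13% of the members and 14% of all genes. Mpeg1 stood at 6.64 in wild-type sham and 6.70 and 7.13 in wild-type TAC, and at 7.28 in transgenic sham and 7.04 and 7.27 in transgenic TAC, with a difference of the TAC responses of -0.40 ± 0.36. Ccl9 stood at 8.61 in wild-type sham and 8.66 and 8.74 in wild-type TAC, and at 8.85 in transgenic sham and 8.81 and 8.73 in transgenic TAC (-0.16 ± 0.34). Nkg7 had 0.80 ± 0.23, with values given above. The difference itself had adjusted p = 1 in limma for each of the 3. Xist was low in transgenic sham, the array all 3 transgenic differences rest on, and sex and surgery cannot be told apart there.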

How the results depend on the processing

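The number of members past the test was 0 for every comparison in all settings that use the 6 arrays, and 0 to 1 with 1 array left out for each comparison except the difference of the TAC responses, where it was 0. The median difference with 1 array left out was 0.06 to 0.18 for TAC over both genotypes, 0.13 to 0.25 between genotypes, 0.05 to 0.23 within wild type, -0.04 to 0.17 within transgenic, 0.03 to 0.28 after TAC and -0.18 to 0.00 for the difference of the responses. Without both arrays of low Xist it was 0.05 for TAC over both genotypes, where 15 of 23 members were higher in place of 20, 0.27 between genotypes and 0.05 within wild type. With those arrays gone, both TAC values are 1 estimate, wild-type TAC 1 against wild-type sham. The genotype value then rests on wild-type TAC 1 against the transgenic TAC arrays. With Xist as a covariate the median was 0.06 within wild type, 0.30 within transgenic hearts, 0.28 after TAC between genotypes and 0.11 for the difference of the responses. The other settings (median over probes, no filter, the 75th percentile, cyclic loess, subtraction of the 10th percentile, no intensity trend) moved no median by the spread of 0.100 between TAC arrays of a group. By the median over probes Tbc1d10c stood at 0.00 for TAC over both genotypes and 0.04 within transgenic hearts, from probes that do not follow the bright one. For the difference of the responses Mpeg1 turned to 0.20 with Xist as a covariate and Lyz2 ranged from -1.18 without transgenic TAC 1 to 0.01 without transgenic TAC 2. The cause was not tested. The TAC arrays carry the numbers 1 and 2 in each genotype. TAC 1 minus TAC 2 in wild type correlated with that in transgenic hearts at r = -0.0288 across tested genes. Whether arrays of the same number were handled together was not tested. With the number as a replicate block 0 members passed after TAC, the median was 0.17, and 52 genes in all passed in place of 23. Without wild-type sham or transgenic sham the contrasts that need that array could not be fitted. The TAC comparison over both genotypes then gives the same differences as the one within the other genotype. Likewise, the genotype comparison over both surgeries gives those after TAC. Background without subtraction limits what the 9 members below the filter can show.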

Other observations

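A few receptor genes, chosen after their values were seen, stood higher in every transgenic array than in any wild-type array, as did 7.59% of all tested genes. The list of Toll-like receptors and partners as a whole had 8 of 14 higher between genotypes, with a median of 0.07. The list of myeloid transcription factors and growth factors, which holds Csf2ra, had 5 of 9 higher, with a median of 0.07. Tlr4, the endotoxin receptor that works with CD14, was at 7.67, 8.13 and 7.96 in wild-type sham, TAC 1 and TAC 2 and at 8.38, 8.42 and 8.79 in the transgenic ones (0.61 ± 0.16, adjusted p = 0.141 in limma). Tlr2, which senses bacterial lipoproteins, was at 7.71, 8.02 and 7.98 against 8.34, 8.47 and 8.60 (0.56 ± 0.14, adjusted p = 0.127). Csf2ra, the receptor chain for granulocyte and macrophage colony stimulating factor, was at 6.63, 7.08 and 6.65 against 7.53, 7.35 and 7.52 (0.68 ± 0.16, adjusted p = 0.110). Ly96, the partner of Tlr4, ranged from 7.26 to 7.82 with overlap. None of Tlr4, Tlr2 and Csf2ra passed, and none is restricted to leukocytes.

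The neutrophil calprotectin gene S100a8, also chosen after its values were seen, ran the other way. It stood at 7.34, 6.70 and 7.65 in wild-type arrays and 6.19, 6.49 and 6.25 in transgenic ones (-0.92 ± 0.22, adjusted p = 0.118 in limma). Of all tested genes, 8.55% lay wholly lower in transgenic arrays. Its partner S100a9 stood at -0.48 ± 0.17 (adjusted p = 0.306) with 1 transgenic array, TAC 2 at 5.94, above wild-type TAC 1 at 5.87. The neutrophil list had 1 of 4 tested genes higher between genotypes (median -0.31), with Lcn2 at 0.36 ± 0.21. The C1q genes C1qb and C1qc, also chosen after their values were seen, had their lowest value in wild-type sham (9.53 and 9.23, beside 9.84 to 10.22 on the other arrays). That array also held the lowest value of 11 members and of 15.7% of all tested genes. Other genes of the same list went the other way, with Stab1 (10.04) and Clec10a (6.27) highest in wild-type sham.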
